A study of Capra hircus with 9 samples.

Results

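10 genes of polyamine and arginine metabolism were followed in uterine messenger RNA of Liaoning Cashmere goats (Capra hircus), a breed kept for its fibre. The members were the rows of the gene count table whose gene name was ODC1, AZIN1, OAZ1, AMD1, SRM, SMS, SAT1, ARG2, AGMAT or NOS3. All 10 were found among 25671 rows, and 9 of them passed the filter on low counts, as did 16098 genes in all. AGMAT was the member that did not pass. The samples were taken on day 6, day 16 and day 19 of the peri-implantation period, with 3 libraries a day, sequenced on an Ion Proton after poly(A) selection.

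The labels name no treatment and no pregnancy status, they do not give the event from which the days were counted, and the design text words the days as ages. They also differ on the tissue, which is uterus in the tissue field, endometrial epithelium in the series title and testis in the treatment protocol. Whether the 3 libraries of a day are separate animals is not said, so the p-values cover only the spread among these libraries, part of which may be technical. In bulk tissue, fewer cells of a type and less RNA per cell cannot be told apart.

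The polyamines putrescine, spermidine and spermine are small positively charged molecules that bind nucleic acids and are needed for translation and cell growth. Arginase turns arginine into ornithine, ornithine decarboxylase turns ornithine into putrescine, and the synthases for spermidine and spermine then add aminopropyl groups taken from decarboxylated S-adenosylmethionine. Nitric oxide synthases use the same arginine to make nitric oxide and citrulline. In sheep, arginine and polyamines are known to be needed for growth of the conceptus around implantation, and the sheep conceptus can also make putrescine from arginine by way of agmatine.

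Total counts lay between 8712751 and 11074693 per library. Of the 7 uterine markers, HOXA10, PGR and ESR1 among them, all were in the table, and their summed level lay between 845.6 and 1613 CPM (counts scaled to a common library total) in the 9 libraries. The testis germ cell markers summed to between 0.291 and 2.52 CPM, with 4 of 7 at 0 in every day 6 library, 3 of 7 in every day 16 library and 4 of 7 in every day 19 library. Epithelial, stromal and smooth muscle markers were also present in every library. Replicate 1 of day 19 stood apart from the other libraries of its day: cytosolic ribosomal protein genes took 2.42% of its counts, against 6.61% and 5.64% in replicates 2 and 3, and between 3.64% and 4.34% on the earlier days. Where leaving it out changed a member's call between 2 days, or a count of members or related genes called, this is stated. Changed calls of single related genes are given only in part.

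ODC1 and SMS were the members whose levels fell. Both were lower on day 16 than on day 6 and lower on day 19 than on day 6, ODC1 at 0.189 and SMS at 0.326 of the day 6 level by day 16. Expression is given as CPM after TMM scaling, which evens out library composition, and a gene was called at an adjusted p under 0.05 (edgeR's quasi-likelihood test, Benjamini-Hochberg adjustment over all genes tested). By this rule 2 of 9 members were called in day 16 against day 6, both lower, where 8.86% of all tested genes were called, 3.74% lower and 5.12% higher. On day 19 against day 6, 2 of 9 members were called, again both lower, where 22.9% of all tested genes were called, 10.2% lower and 12.7% higher. A share of 2 in 9 members is thus near the background in the later comparison. The test for any difference among the 3 days called the same 2 members and 19.6% of all genes.

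Between day 19 and day 16, 0 of 9 members were called with edgeR, where 1.20% of all genes were called. Of the 9 members, 0 reached an unadjusted p under 0.05, against 24.5% of all genes. The DESeq2 test also called 0 members, against 1657 of the 16495 genes it tested. The limma voom test with sample weights called 3 members, OAZ1, AMD1 and SRM (adjusted p = 0.00128, 0.0433 and 0.0311), against 7354 genes in all. The median log2 fold change of the 9 members was -0.11 in day 16 against day 6, 0.05 in day 19 against day 6 and 0.21 in day 19 against day 16. Over all tested genes these medians were -0.00027, 0.02 and 0.01. The comparisons share libraries (each day enters a pair of them), so they are not independent.

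Without replicate 1 of day 19, the same test called 3 members in day 16 against day 6, ODC1, SMS and AMD1, where 20.4% of all genes were called. It then called 5 members in day 19 against day 6, ODC1, SMS, AZIN1, OAZ1 and ARG2, where 54.2% of all genes were called. With day 16 as the baseline of day 19 it then called 4 members, AZIN1, OAZ1, AMD1 and SRM, where 44.7% of all genes were called. The gain in members thus went with a gain over the whole table.

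**Figure D1:**
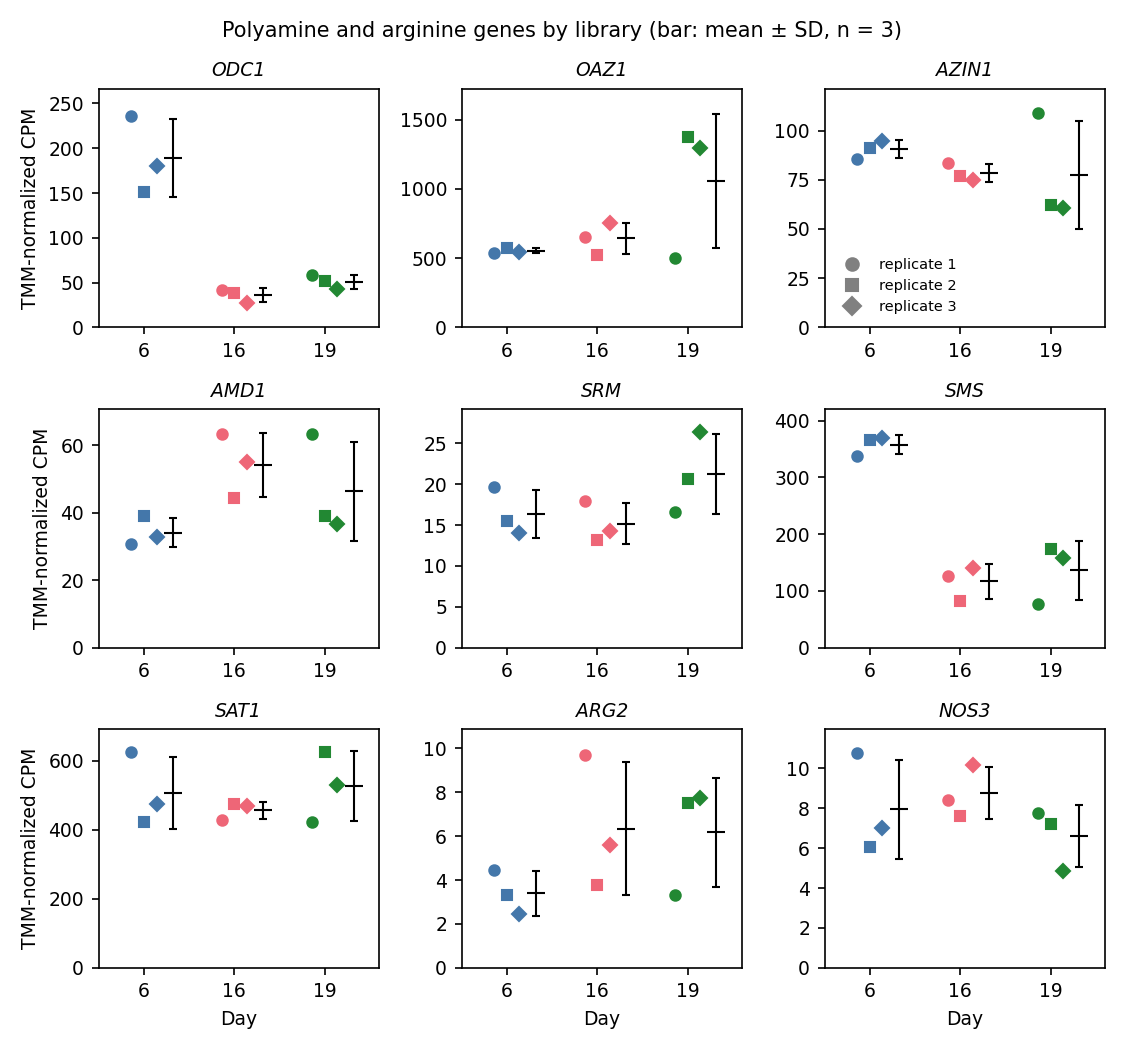
TMM-scaled CPM of the 9 tested members in each library, on linear axes starting at 0. Each panel is 1 gene, with days 6, 16 and 19 from left to right, points marking the 3 libraries of a day by replicate number and bars giving the mean ± SD. The day 16 and day 19 libraries sit below all day 6 libraries for ODC1 and SMS. Replicate 1 of day 19 sits apart from replicates 2 and 3 for OAZ1, AZIN1, AMD1, SMS and ARG2, and is the lowest of all libraries for SMS.

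ODC1 encodes ornithine decarboxylase, the rate-limiting enzyme that makes putrescine. It was at 236, 151 and 180 CPM in the day 6 libraries, at 42.1, 38.0 and 27.1 CPM in the day 16 libraries and at 58.6, 51.8 and 42.7 CPM in the day 19 libraries. The day 6 libraries were all far above the others, and every day 19 library was above every day 16 library. Means were 189 ± 43.3, 35.8 ± 7.75 and 51.0 ± 7.95 CPM on days 6, 16 and 19 (SD, n = 3 each), from 5850, 1035 and 1526 reads summed over the libraries of each day.

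On day 16 ODC1 fell to 0.189 of the day 6 level (95% interval 0.130 to 0.277), a log2 fold change of -2.40 with SE 0.24 (edgeR adjusted p = 0.000456). On day 19 it was at 0.270 of the day 6 level (0.187 to 0.392), a log2 fold change of -1.89 with SE 0.24 (edgeR adjusted p = 0.000860). The difference of day 19 from day 16 did not pass, with a log2 fold change of 0.51 and a 95% interval of -0.01 to 1.04 (edgeR adjusted p = 0.210). ODC1 was called in 17 of 17 alternative settings in day 16 against day 6, with log2 fold changes of -2.54 to -2.21, and in 17 of 17 in day 19 against day 6, with -2.03 to -1.71.

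A second row of the table, LOC102182731, is described as ornithine decarboxylase-like. Such a row can share reads with ODC1, and how the counting treated shared reads is not given in the sources used here. It held 347, 268 and 248 counts in the day 6 libraries, 79, 58 and 35 in the day 16 libraries and 86, 59 and 56 in the day 19 libraries, which is 10.2% to 16.5% of the reads of both rows together. The row had log2 fold changes of -2.22 in day 16 against day 6 (SE 0.34, edgeR adjusted p = 0.00391) and -2.06 in day 19 against day 6 (SE 0.34, edgeR adjusted p = 0.00315). With both rows summed, an alternative chosen after the data were seen, the log2 fold changes were -2.38 and -1.91.

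OAZ1 encodes antizyme, which binds ornithine decarboxylase, sends it to the proteasome and also lowers polyamine uptake. It was at 541, 573 and 547 CPM on day 6, at 655, 523 and 751 CPM on day 16 and at 500, 1375 and 1298 CPM on day 19. Replicates 2 and 3 of day 19 were above every other library, whereas replicate 1 of day 19 was the lowest of the 9. With means of 1058 ± 484 CPM on day 19 and 554 ± 17.5 CPM on day 6 (SD, n = 3 each), the log2 fold change was 0.93 with a 95% interval of 0.15 to 1.72, and it did not pass (edgeR adjusted p = 0.0824). DESeq2 called it, with the same log2 fold change of 0.93 (adjusted p = 0.0378).

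Without replicate 1 of day 19, OAZ1 was called higher on day 19 than on day 6, at 2.43 times the level (log2 fold change 1.28, edgeR adjusted p = 0.000199), and higher on day 19 than on day 16 (log2 fold change 1.07, edgeR adjusted p = 0.000789). Day 16 against day 6 gave a log2 fold change of 0.22 in the fit of all libraries (edgeR adjusted p = 0.826). The order of the 3 day 19 libraries in OAZ1 was also their order in the share of ribosomal protein genes given above, 2.42%, 6.61% and 5.64%. The part of that share in the OAZ1 result was not tested.

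AZIN1 encodes antizyme inhibitor, a relative of ornithine decarboxylase without its activity that binds antizyme and so frees the enzyme. It was at 85.7, 91.1 and 94.8 CPM on day 6, at 83.4, 76.8 and 74.6 CPM on day 16 and at 109, 62.0 and 60.8 CPM on day 19. The day 16 libraries were all below the day 6 libraries, by a small margin, and replicate 1 of day 19 was the highest of all 9 while replicates 2 and 3 were the lowest. Log2 fold changes of -0.21 in day 16 against day 6 and -0.23 in day 19 against day 6 did not pass (edgeR adjusted p = 0.713 and 0.491). Without replicate 1 of day 19 the second became -0.55 (edgeR adjusted p = 0.00225), and day 19 against day 16 became -0.34 (adjusted p = 0.0294), against -0.02 with all libraries.

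AMD1 encodes S-adenosylmethionine decarboxylase, which supplies the aminopropyl groups for spermidine and spermine. It was at 30.8, 38.9 and 32.7 CPM on day 6, at 63.4, 44.4 and 55.0 CPM on day 16 and at 63.3, 38.9 and 36.7 CPM on day 19. Every day 16 library was above every day 6 library, and on day 19 replicate 1 alone was as high as the upper day 16 library. Day 16 against day 6 gave means of 54.3 ± 9.51 and 34.1 ± 4.25 CPM (SD, n = 3 each) and a log2 fold change of 0.67 with a 95% interval of 0.12 to 1.22, which did not pass after adjustment (edgeR adjusted p = 0.142). It passed at the same size without replicate 1 of day 19 (log2 fold change 0.67, edgeR adjusted p = 0.0139), when only the libraries of days 6 and 16 were fitted (0.68, adjusted p = 0.0206) and with limma voom (0.66, adjusted p = 0.00929).

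For day 19 against day 6, the log2 fold change of AMD1 was 0.44 (edgeR adjusted p = 0.214), and for day 19 against day 16 it was -0.23 (adjusted p = 0.567). Without replicate 1 of day 19 day 19 against day 16 gave -0.51 (edgeR adjusted p = 0.0375). An AMD1-like row, LOC102179082, which can share reads with AMD1, held 12.15% to 18.3% of the reads of both rows together. Its means were 7.30 ± 0.43, 10.2 ± 1.24 and 8.06 ± 4.72 CPM on days 6, 16 and 19. Its day 16 libraries were all above its day 6 libraries, and its log2 fold change of 0.48 did not pass (edgeR adjusted p = 0.548). With both rows summed, the log2 fold change of AMD1 in day 16 against day 6 was 0.64 and did not pass (edgeR adjusted p = 0.177).

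SRM encodes spermidine synthase, which adds the first aminopropyl group to putrescine. It was at 19.7, 15.4 and 14.0 CPM on day 6, at 18.0, 13.2 and 14.3 CPM on day 16 and at 16.6, 20.7 and 26.3 CPM on day 19. Days 6 and 16 overlapped almost entirely, and replicates 2 and 3 of day 19 were the highest libraries. The log2 fold changes were -0.11 in day 16 against day 6, 0.37 in day 19 against day 6 and 0.48 in day 19 against day 16, and none passed (edgeR adjusted p = 0.879, 0.279 and 0.241). The last was called without replicate 1 of day 19, at 0.64 (edgeR adjusted p = 0.0337).

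SMS encodes spermine synthase, which adds an aminopropyl group to spermidine. It was at 338, 365 and 369 CPM on day 6, at 126, 82.8 and 141 CPM on day 16 and at 77.4, 174 and 157 CPM on day 19. The lowest day 6 library was above the highest later library, and the 2 later days overlapped. The means were 357 ± 16.9, 117 ± 30.1 and 136 ± 51.7 CPM on days 6, 16 and 19 (SD, n = 3 each).

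On day 16 SMS fell to 0.326 of the day 6 level (95% interval 0.201 to 0.530), a log2 fold change of -1.62 with SE 0.31 (edgeR adjusted p = 0.0119). On day 19 it was at 0.381 of the day 6 level (0.235 to 0.618), a log2 fold change of -1.39 with SE 0.31 (edgeR adjusted p = 0.0124), and -1.10 without replicate 1 of day 19 (adjusted p = 0.00176). Day 19 against day 16 gave 0.22 with a 95% interval of -0.46 to 0.91 (edgeR adjusted p = 0.655). Leaving out replicate 2 of day 16, the lowest library of its day, gave -1.42 in day 16 against day 6 and ended the call (edgeR adjusted p = 0.0537). The call in day 19 against day 6 held in 17 of 17 alternative settings.

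**Figure D2:**
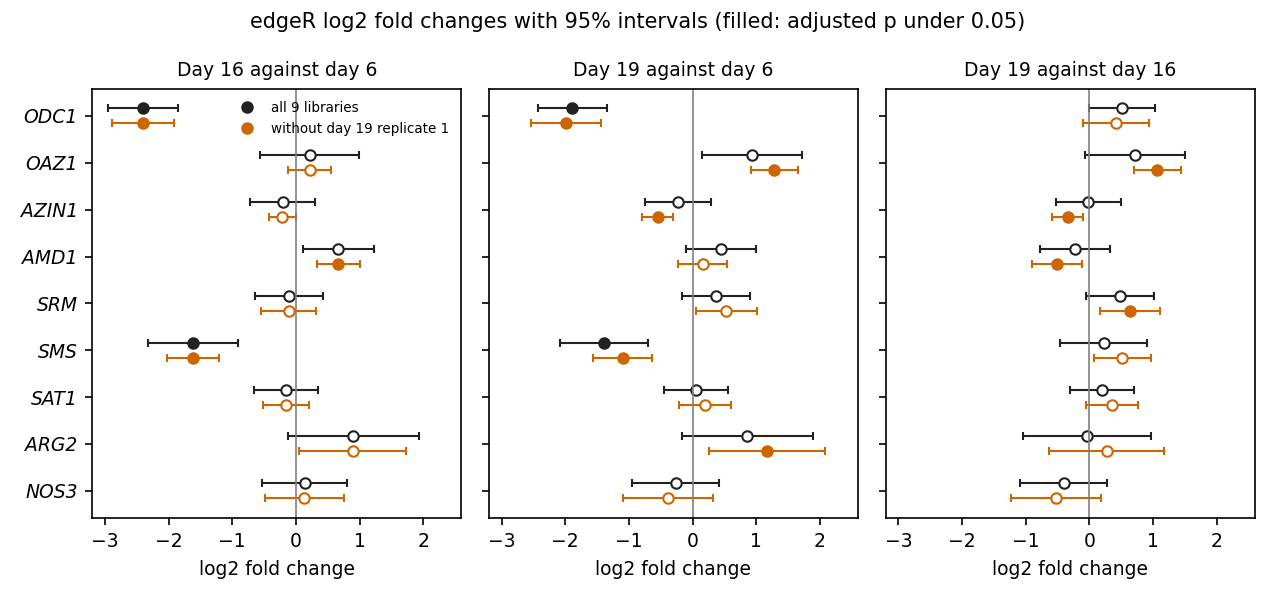
Log2 fold changes of the 9 tested members in day 16 against day 6, day 19 against day 6 and day 19 against day 16, from the edgeR fit of all 9 libraries (black) and without replicate 1 of day 19 (orange). Points are estimates, filled where the adjusted p is under 0.05 and open elsewhere, bars are 95% intervals, and values above 0 are higher on the later day. With all libraries only ODC1 and SMS are filled against day 6, and OAZ1 in day 19 against day 6 is filled without that library, at 1.28.

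SAT1 encodes spermidine/spermine acetyltransferase, which starts the breakdown and export of both polyamines. It was at 625, 422 and 476 CPM on day 6, at 428, 474 and 469 CPM on day 16 and at 422, 626 and 531 CPM on day 19. The 3 days overlapped, and days 6 and 19 covered nearly the same range. Log2 fold changes were -0.15, 0.05 and 0.20 in day 16 against day 6, day 19 against day 6 and day 19 against day 16, with the 95% interval of the second between -0.45 and 0.56 (edgeR adjusted p = 0.807, 0.880 and 0.577).

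ARG2 encodes the mitochondrial arginase that makes ornithine from arginine. It was low, with 25 to 92 counts a library, at 4.46, 3.30 and 2.44 CPM on day 6, at 9.69, 3.76 and 5.59 CPM on day 16 and at 3.30, 7.49 and 7.72 CPM on day 19. The later days spread widely and each overlapped day 6. The log2 fold changes of 0.90 in day 16 against day 6 and 0.86 in day 19 against day 6 had 95% intervals of -0.13 to 1.93 and -0.17 to 1.88 and did not pass (edgeR adjusted p = 0.313 and 0.198). Without replicate 1 of day 19 the second was 1.17 and passed (edgeR adjusted p = 0.0351).

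ARG2 overlaps VTI1B, a gene of vesicle fusion, in the ARS1.2 annotation, and VTI1B was called in day 19 against day 6 (log2 fold change 0.81, edgeR adjusted p = 0.0422). Use of strand in the counting is not given in the sources used here, so reads of the 2 genes where they overlap cannot be told apart. The same annotation has AGMAT overlapping DNAJC16 and NOS3 overlapping ATG9B, neither of which was called in any of the 3 comparisons. It also has SAT1 overlapping LOC102190942, whose row held 1 read on day 6 and 0 on days 16 and 19.

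AGMAT encodes agmatinase, which makes putrescine from agmatine. Its row held 2, 1 and 3 counts on day 6, 2, 1 and 0 counts on day 16 and 1, 0 and 2 counts on day 19, so it was close to the limit of detection in every library. The ratio of its counts for equal library size was 0.523 in day 16 against day 6, with a 95% counting interval of 0.0847 to 2.45, and 0.516 in day 19 against day 6, with 0.0836 to 2.42. These intervals cover counting error only, and no difference was detectable at this depth.

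NOS3 encodes the endothelial nitric oxide synthase. It was at 10.8, 6.08 and 7.02 CPM on day 6, at 8.42, 7.63 and 10.2 CPM on day 16 and at 7.77, 7.19 and 4.87 CPM on day 19. The 3 days overlapped, and the log2 fold changes of 0.14, -0.27 and -0.40 in day 16 against day 6, day 19 against day 6 and day 19 against day 16 did not pass (edgeR adjusted p = 0.880, 0.540 and 0.411). A row described as endothelial-like nitric oxide synthase, LOC102179383, held 11.5% to 24.2% of the reads of both rows together, at 1.92 ± 0.98, 1.81 ± 0.016 and 1.45 ± 0.85 CPM on days 6, 16 and 19. It was called in 0 of the 3 comparisons, and with both rows summed the log2 fold changes of NOS3 were 0.10, -0.29 and -0.39. The 11 endothelial markers in the table summed to 947 to 1199 CPM on day 6, to 1201 to 1507 CPM on day 16 and to 778 to 909 CPM on day 19. VWF led these sums, at 483, 470 and 421 CPM on day 6, 805, 588 and 582 on day 16 and 348, 381 and 416 on day 19. EMCN was instead lower on day 16, at 28.1, 24.3 and 32.4 CPM against 47.6, 39.3 and 52 on day 6. The median log2 fold change of the 11 was 0.111 in day 16 against day 6 and -0.262 in day 19 against day 6. Of these markers 0 of 11 were called in day 16 against day 6, beside 8.86% of all tested genes. In day 19 against day 6, 2 of 11 were called, both lower, beside 10.2% of all tested genes called lower. Their part in the level of NOS3 was not tested.

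Counting only whether the libraries of 2 days overlap in CPM, 4 of 9 members did not overlap between days 16 and 6 (ODC1, AZIN1, AMD1 and SMS), against 38.7% of all tested genes. Between days 19 and 6 it was 2 of 9 (ODC1 and SMS), against 38.5% of all genes, and between days 19 and 16 it was 1 of 9 (ODC1), against 23.9%.

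Ratios of counts within a library, which do not depend on library scaling, put the members beside each other. The 4 ratios were chosen after the values were seen. They are not corrected for gene length, so each is read across days only. The ratio of ODC1 to OAZ1 counts was 0.437, 0.263 and 0.329 on day 6, 0.0643, 0.0728 and 0.0361 on day 16 and 0.117, 0.0377 and 0.0329 on day 19. Every day 6 library was thus above every later one, and replicate 1 of day 19 was the highest of the later libraries.

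The ratio of AMD1 to ODC1 counts averaged 0.190 ± 0.0641 on day 6, 1.57 ± 0.433 on day 16 and 0.897 ± 0.168 on day 19 (SD, n = 3 each). The ratio was highest in the day 16 libraries, at 1.17 to 2.03, and every day 19 library lay between those of days 6 and 16. The ratio of SMS to SRM averaged 22.4 ± 4.68, 7.70 ± 1.86 and 6.35 ± 1.91, and that of SAT1, the breakdown enzyme, to SMS averaged 1.43 ± 0.367, 4.15 ± 1.37 and 4.14 ± 1.14. In each of the 4 ratios the day 6 libraries did not overlap with those of either later day. Each ratio holds ODC1 or SMS, whose day 6 libraries were all above the later ones, so this separation adds no evidence of its own. No share over other pairs of genes was taken.

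**Figure D3:**
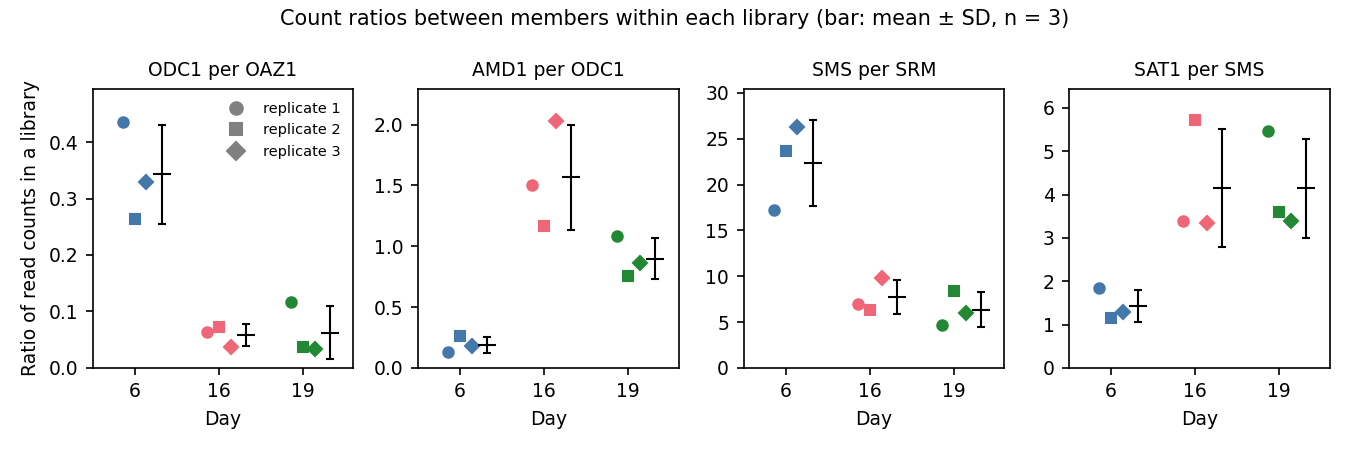
Ratios of read counts within each library for 4 pairs of members, ODC1 per OAZ1, AMD1 per ODC1, SMS per SRM and SAT1 per SMS, on linear axes starting at 0. Points are libraries, with circle, square and diamond for replicates 1, 2 and 3, and bars give the mean ± SD of days 6, 16 and 19. The day 6 libraries stand clear of the later days in each panel, above them for ODC1 per OAZ1 and SMS per SRM and below them for the other pairs.

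Beyond the members, 56 further genes were listed for polyamine metabolism and transport, for arginine, ornithine and proline metabolism, and for nitric oxide signalling. Of these, 55 were in the table and 50 were tested. In day 16 against day 6, 6 of 50 were called, 3 higher and 3 lower, near the background of 8.86%, and their median log2 fold change was 0.01. For day 19 against day 6, 11 of 50 were called, 7 higher and 4 lower, near the background of 22.9%, with a median of 0.14. Between days 19 and 16 edgeR called 0 of 50, DESeq2 called 3, and 9 had an edgeR p under 0.05 before adjustment. Without replicate 1 of day 19 these counts were 13, 29 and 25 of 50, beside 20.4%, 54.2% and 44.7% of all genes in that fit. The 29 were 16 higher and 13 lower. SLC7A1 and PDE5A were among those gained in day 19 against day 6. Their log2 fold changes were then -3.56 and -3.29 (edgeR adjusted p = 5.3e-05 and 2.2e-05). With all libraries they were -0.45 and -1.04 (edgeR adjusted p = 0.764 and 0.383). Fitting only the libraries of days 19 and 6 ended the calls of ASL, SLC25A15, SLC7A6, EIF5A and MYC in day 19 against day 6.

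Of the 17 tested polyamine genes, 4 were called in day 16 against day 6 and 5 in day 19 against day 6 (23.5% and 29.4%). Over all tested genes the shares were 8.86% and 22.9%. Without replicate 1 of day 19 the counts were 7 and 11, beside 20.4% and 54.2% of all genes. ATP13A2, a lysosomal polyamine exporter, averaged 36.4 ± 6.12, 10.2 ± 1.44 and 8.55 ± 1.74 CPM on days 6, 16 and 19 (SD, n = 3 each). It fell on both later days, with log2 fold changes against day 6 of -1.84 on day 16 and -2.09 on day 19 (edgeR adjusted p = 0.00136 and 0.000487). SMOX, the oxidase that turns spermine back into spermidine, was lower on day 16 than on day 6, at 31.0 ± 5.69 against 66.6 ± 9.47 CPM (log2 fold change -1.10, edgeR adjusted p = 0.0104), a call lost in 4 of 17 alternative settings, without replicate 2 or 3 of day 6 or replicate 1 or 2 of day 16 (edgeR adjusted p up to 0.0550). On day 19 it was at 44.0 ± 7.46 CPM, with all 3 libraries below those of day 6, and was not called against day 6 (log2 fold change -0.60, edgeR adjusted p = 0.0623). That comparison gave -0.50 without replicate 1 of day 19 and was called (edgeR adjusted p = 0.0490), and SMOX was then also called higher on day 19 than on day 16 (0.60, adjusted p = 0.0279).

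SLC3A2, the heavy chain of several amino acid transporters that has also been tied to polyamine export, averaged 108 ± 19.5, 212 ± 31.9 and 311 ± 13.4 CPM on days 6, 16 and 19. Its log2 fold changes against day 6 were 0.97 on day 16 and 1.53 on day 19 (edgeR adjusted p = 0.0137 and 0.000929). The first was lost in 4 of 17 alternative settings, without replicate 1 or 3 of day 6 or replicate 1 or 2 of day 16 (edgeR adjusted p up to 0.0638), and the second in 0 of 17. MAT2B, a regulatory subunit of the enzyme that makes S-adenosylmethionine, had log2 fold changes of 0.89 on day 16 and 1.11 on day 19 (edgeR adjusted p = 0.0475 and 0.0106), of which the first was called in 7 of 17 alternative settings and was lost without any 1 library of day 6 or day 16 or without replicate 2 of day 19 (adjusted p up to 0.181).

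MYC, a transcription factor known to activate ODC1, averaged 58.1 ± 18.1 CPM on day 19 and 29.7 ± 4.19 CPM on day 6 (log2 fold change 0.97, edgeR adjusted p = 0.0215). MYC was thus called higher on day 19, where ODC1 was called lower, and its part in the level of ODC1 was not tested. The MYC call held in 12 of 17 alternative settings but not without any 1 library of day 6 (adjusted p up to 0.0914). EIF5A, the translation factor whose hypusine is built from spermidine, had a log2 fold change of 0.76 in day 19 against day 6 (edgeR adjusted p = 0.0429), which was called in 5 of 17 and was lost without any 1 library other than replicate 1 of day 19 (adjusted p up to 0.135).

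Of the 17 tested arginine genes, 1 was called in day 16 against day 6 and 5 in day 19 against day 6 (5.88% and 29.4%). Over all tested genes the shares were 8.86% and 22.9%. Without replicate 1 of day 19 the counts were 3 and 9, beside 20.4% and 54.2% of all genes. ALDH18A1, which makes the pyrroline carboxylate from which proline and ornithine are built, averaged 254 ± 21.1, 68.8 ± 7.52 and 59.3 ± 7.43 CPM on days 6, 16 and 19 (SD, n = 3 each). Its log2 fold changes against day 6 were -1.88 on day 16 and -2.10 on day 19, each with SE 0.17 (edgeR adjusted p = 0.000292 and 0.000119), and both calls held in 17 of 17 alternative settings. ALDH4A1, which oxidises pyrroline carboxylate to glutamate, was higher on day 19 than on day 6, at 50.0 ± 22.4 against 12.9 ± 1.63 CPM (log2 fold change 1.95, edgeR adjusted p = 0.00514).

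SLC25A15, the mitochondrial ornithine carrier, was lower on day 19 than on day 6, at 2.16 ± 1.71 against 9.80 ± 1.34 CPM (log2 fold change -2.17, edgeR adjusted p = 0.0173), a call kept in 13 of 17 alternative settings and lost without replicate 2 or 3 of day 6 or replicate 3 of day 19 (adjusted p up to 0.0564). Its log2 fold change was -2.96 without replicate 1 of day 19 (edgeR adjusted p = 0.000463), and over all alternative settings it lay between -3.10 and -1.72. SLC7A6, a transporter of cationic amino acids, was also lower (log2 fold change -1.36, edgeR adjusted p = 0.0359), and ASL, which releases arginine from argininosuccinate, was higher (0.97, adjusted p = 0.0297). Each of these 2 calls was kept in 10 of 17 and lost without any 1 library of day 6 or replicate 2 or 3 of day 19, and that of SLC7A6 also without replicate 3 of day 16 (edgeR adjusted p up to 0.114 for SLC7A6 and 0.104 for ASL).

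Of the 16 tested nitric oxide genes, 1 was called (6.25%), and it was called in both comparisons with day 6. Over all tested genes the shares were 8.86% in day 16 against day 6 and 22.9% in day 19 against day 6. Without replicate 1 of day 19 these counts were 3 and 9, beside 20.4% and 54.2% of all genes. NOSTRIN, which binds the endothelial synthase and moves it away from the membrane, averaged 5.21 ± 0.138, 22.4 ± 4.19 and 41.9 ± 17.0 CPM on days 6, 16 and 19 (SD, n = 3 each). It rose to 4.29 times the day 6 level on day 16 and to 8.03 times on day 19 (edgeR adjusted p = 0.00279 and 0.000339), and both calls held in 17 of 17 alternative settings. NOSTRIN is known from endothelium, whose 11 markers summed to 1201 to 1507 CPM on day 16 and 947 to 1199 CPM on day 6, ranges that nearly touch. Their sum was 778 to 909 CPM on day 19. VWF led these sums, and not all markers followed it. EMCN was lower on day 16 than on day 6. EGFL7 was at 6.12, 19.4 and 22.2 CPM on day 19, against 9.1, 5.15 and 3.8 CPM on day 6. In day 16 against day 6, 0 of 11 markers were called, and in day 19 against day 6, 2 of 11 were called lower, beside 10.2% of all tested genes. The part of these markers in the level of NOSTRIN was not tested.

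**Figure D4:**
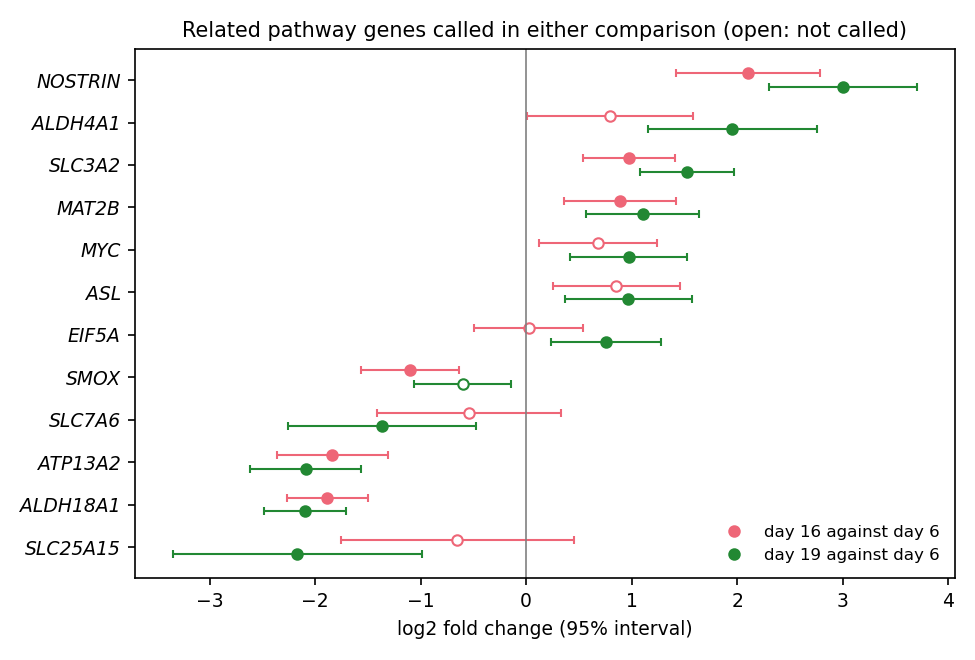
Log2 fold changes against day 6 of the related genes called in either comparison with day 6, from the edgeR fit of all 9 libraries, with 95% intervals as bars. Filled points passed the test, open points did not, and values above 0 are higher on the later day. ALDH18A1 lies at -1.88 and -2.10 and NOSTRIN, at the other end, at 2.10 and 3.01 on days 16 and 19.

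Over the 9 libraries, the log2 CPM of ODC1 was most like that of DNAJC5, a chaperone of synaptic vesicles (Pearson r = 0.983), MFSD2A, a lipid transporter (0.979), and TMEM252 (0.976), out of 12855 tested genes with a true symbol. MFSD2A averaged 115 CPM on day 6, 8.70 CPM on day 16 and 16.3 CPM on day 19. SMS was most like TDRKH (0.986), TRIM37, a ubiquitin ligase (0.986), and C16H1orf21 (0.982). These correlations are descriptions over libraries that share their days, and all 6 genes had their highest mean on day 6.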

How the data were processed

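Messenger RNA was measured in 9 libraries, 3 for each of days 6, 16 and 19. Per the file headers and the values, the table the authors deposited holds raw counts of reads for each gene. How reads were aligned and counted, on which build and annotation, and with or without strand, is not given in the sources used here. Total counts, 8712751 to 11074693 per library, set the precision, and members under about 100 counts a library are the least precise. No pair of libraries of a day agreed within sampling noise (lowest chi-square per gene 9.85), so all were kept.

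In R 4.3.3, edgeR 4.0.16 scaled libraries by TMM, filtered low counts with filterByExpr and fitted a quasi-likelihood model with robust estimation to all 9 libraries with day as the only term, on the whole table. P-values were adjusted by Benjamini-Hochberg over 16098 genes and called under 0.05. SE is the absolute log2 fold change over the square root of F. Alternatives were DESeq2 1.42.0, limma voom 3.58.1 with sample weights, RLE and upper quartile scaling, no filter, only the days compared, a replicate block and leaving out each library. Summing rows described as copies of a member was added after seeing the data. The script was tested on simulated data with less spread than these data, which checks the code and not the calls made here.

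All 10 members are named, every called gene of the 3 related lists may be named, and the 3 genes nearest in pattern are given for each member called among the days. Members and lists were chosen with earlier results of these data known. GUCY1A1, GUCY1B1 and PYCR3 were also looked up under older symbols, and overlaps between genes come from RefSeq's ARS1.2 annotation, matched by gene identifier. PRODH was not analysed here. Sequences of the members are not shown.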

Additional observations from a re-analysis of the deposited data

How the results depend on the processing

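Of 459 member log2 fold changes under alternative settings, 426 kept their direction and side of the threshold, 18 became calls, 1 lost its call and 14 turned direction. Genes called were 1427 in day 16 against day 6, against 3092 with only the libraries compared, 3811 with voom, 2235 with DESeq2 and 664 to 3345 leaving out 1 library. For day 19 against day 6 they were 3684, against 2357 with only the libraries compared, 9433 with voom and 1928 to 8891 leaving out 1. For day 19 against day 16 they were 193, against 0 with only the libraries compared, 7354 with voom, 1657 with DESeq2 and 0 to 7331 leaving out 1. Among the days they were 3156, against 10629 with voom, 5011 with DESeq2 and 1416 to 9703 leaving out 1. Members called ranged from 1 to 3, 2 to 5, 0 to 4 and 2 to 5 in these 4 tests leaving out 1 library, and voom called 6 in day 19 against day 6, 3 in day 19 against day 16 and 7 among the days. Related genes called, 6, 11 and 0, were 12 and 6 in the comparisons with day 6 using only the libraries compared, 13, 33 and 25 with voom, 17 in day 19 against day 6 and 3 in day 19 against day 16 with DESeq2, and 3 to 13, 6 to 29 and 0 to 25 leaving out 1. The highest of these leave-one-out counts came without replicate 1 of day 19, and the cause was not tested.

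Members that turned direction were never called in that setting. Leaving out 1 library, log2 fold changes in day 16 against day 6 ranged from -0.249 to 0.0453 for SRM, -0.268 to 0.0280 for SAT1 and -0.0224 to 0.421 for NOS3. Against day 6, day 19 gave -0.0848 to 0.214 for SAT1 and -0.43 to 0.0018 for NOS3. Against day 16, day 19 gave -0.34 to 0.14 for AZIN1 and -0.31 to 0.39 for ARG2. SAT1 in day 19 against day 6 was -0.0110 with upper quartile scaling, and ARG2 in day 19 against day 16 was 0.31 with voom.

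No pairing by replicate number was seen: deviations of the 9 same-numbered pairs correlated at -0.16 to 0.15, with 1 above 0.1, and 4 of 18 best matches had the same number. With 3 libraries a day this check is weak. With the replicate block, 0 genes were called in day 19 against day 16, members called numbered 2, 2, 0 and 2, related genes called were 5, 9 and 0, with MAT2B lost in day 16 against day 6 and ASL, EIF5A and MYC in day 19 against day 6, and ARG2 in day 19 against day 16 was 0.0380. Depth limits ARG2, NOS3 and above all AGMAT.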

Other observations

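Summed levels of other cell type lists moved between days in ways that stand beside the members without a test of their part in them. Macrophage markers, 7 of 8 in the table, summed to 851 to 1321 CPM on day 19 and 284 to 635 CPM on day 6. Of these, 5 of 7 were called higher and 1 lower, beside 12.7% and 10.2% of all tested genes. Stromal markers, 8 of 8 in the table, summed to 13390 to 17620 CPM on day 16 and 23330 to 24400 CPM on day 6. Of these, 0 of 8 were called in either direction, beside 8.86% of all tested genes. The collagen genes COL1A1 and COL3A1 led this sum. COL3A1 was at 10300, 9160 and 10400 CPM on day 6 and at 5640, 6830 and 4360 CPM on day 16. DCN overlapped, at 3160, 2780 and 3810 CPM against 3340, 2780 and 3490 CPM. The median log2 fold change of the list was -0.142. Epithelial markers summed to 936, 1924 and 1491 CPM in replicates 1, 2 and 3 of day 19, and to 1102 to 1502 CPM on day 6. Smooth muscle markers summed to 8211 CPM in replicate 1 of day 6, against 30320 and 24360 CPM in replicates 2 and 3. That replicate 1 also had the highest ODC1, SRM, SAT1, ARG2 and NOS3 and the lowest AZIN1, OAZ1, AMD1 and SMS of its day. Some of these margins were small, as for OAZ1 at 541 CPM against 547 CPM in replicate 3. The share of all genes at an extreme in that library was not taken. Genes of the mitochondrial genome took 0.639%, 1.54% and 1.34% of the counts in replicates 1, 2 and 3 of day 19, and 2.91% to 3.27% on day 6.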
